A study of Arabidopsis thaliana with 16 samples.

Results

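Glutathione synthetase and glutathione transferase genes were examined in the Arabidopsis thaliana mutant glu1-2, in leaves as well as roots. The set holds 10 genes: GSH2 (At5g27380), GSTU1 (At2g29490), GSTU16 (At1g59700), GSTU18 (At1g10360), GSTU20 (At1g78370), GSTU22 (At1g78340), GSTU24 (At1g17170), GSTU25 (At1g17180), GSTU27 (At3g43800) and GSTF4 (At1g02950). Each was read by 1 probe set out of 22266 on the Affymetrix ATH1 array, and all 10 probe sets were measured in all 16 arrays. The array annotation names 7 of these probe sets by a single gene. The other 3, for GSH2, GSTU1 and GSTU24, were identified because their 8 leaf values equal, within rounding, those listed for these genes among the transcripts induced in glu1-2 leaves. That list was drawn up from the same leaf arrays, so the leaf values of these 3 genes are given below as a description with no test. Their leaf standard errors and intervals describe the spread between arrays only.

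The plants were glu1-2, which carries a T-DNA insertion in Fd-GOGAT1 (GLU1, At5g04140), the plastid glutamate synthase that uses ferredoxin, and wild type Col-0. Leaves and roots were harvested separately from the same kind of plantlets, giving 4 groups of 4 biological replicates: leaf glu1-2, leaf wild type, root glu1-2 and root wild type. All plantlets were 18 days old and grown in vitro with 3% sucrose and 1650 mg of ammonium nitrate per litre under a 16 h photoperiod, and tissue was taken 2 h after the light came on. The mutant is a single insertion line, and its plants were smaller and paler than wild type under these conditions. The probe set of Fd-GOGAT1 itself was not analysed here.

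Glutathione is a tripeptide of glutamate, cysteine and glycine. Glutamate-cysteine ligase joins glutamate to cysteine, and glutathione synthetase, the product of GSH2, adds glycine. Glutathione transferases (GSTs) attach glutathione to reactive or foreign compounds, and pumps of the ABCC family then carry the conjugates into the vacuole. Plants have several classes of these enzymes, of which tau (GSTU) and phi (GSTF) are the large, plant-specific ones. Many tau genes lie in runs of neighbours along the chromosomes, and several are known to be strongly induced by xenobiotics, oxidised lipids and stress.

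The values are normalised intensities from the array, deposited as whole numbers. Array medians lay between 97 and 110, and 30.6% of all values were below 32, which is used here as the level under which a signal was too dim to give more than a bound. Intensities of different probe sets depend on their probes and are not set against each other. Differences are given as log2 glu1-2 minus wild type with standard errors (SE), from limma fits over all probe sets, and a difference was called when its q-value, the share of false calls expected among probe sets at least as extreme, was under 0.01. In whole organs, a change in the amount of RNA per cell and a change in the share of cells that express a gene cannot be told apart.

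GSH2, the single synthetase gene, was higher in glu1-2 leaves than in wild type leaves, and did not pass the test in roots. Its intensity was 1134, 814, 1095 and 1064 in glu1-2 leaves, against 558, 508, 603 and 587 in wild type leaves. In roots it was 642, 656, 684 and 711 in glu1-2 and 651, 662, 625 and 688 in wild type. The leaf groups did not overlap, and the lowest of the mutant leaves was replicate 2, whereas the root groups overlapped. The leaf difference was 0.86 on the log2 scale (SE 0.111), a 1.81-fold higher level. In roots the difference was 0.04 (SE 0.0631, 95% confidence interval -0.10 to 0.17), which did not pass the test (q = 0.636).

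**Figure D1:**
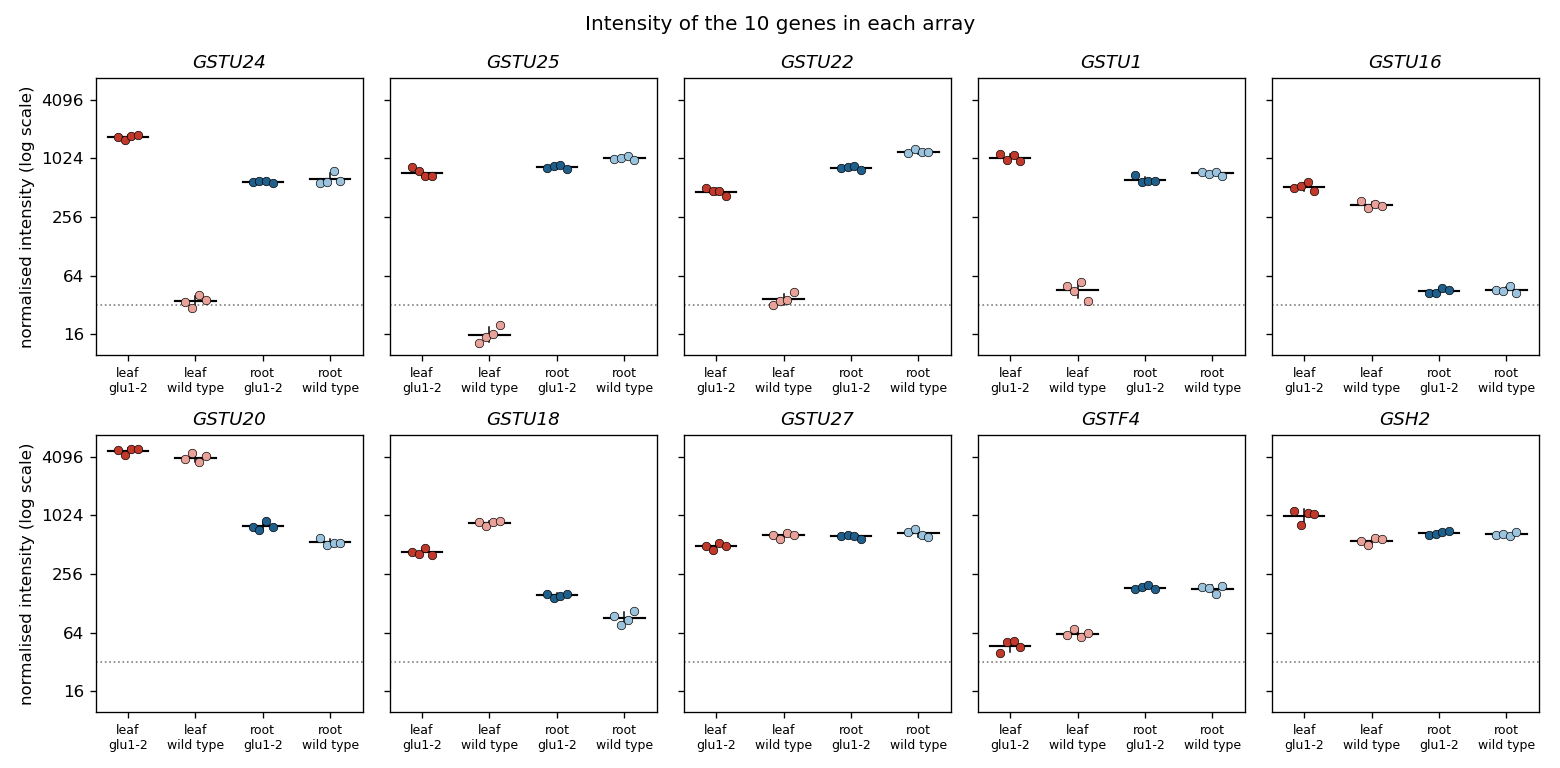
Normalised intensity on a log axis for each of the 10 genes, with 1 point per array, a horizontal bar at the mean of the log2 values and a vertical bar of 1 SD (n = 4 per group); the dotted line marks an intensity of 32. GSTU24, GSTU25, GSTU22 and GSTU1 sit between 422 and 1781 in glu1-2 leaves and between 13 and 55 in wild type leaves, while in roots every array of both genotypes lies between 566 and 1269.

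Among the tau class genes, 4 were barely detected in wild type leaves and reached intensities of 422 to 1781 in glu1-2 leaves. GSTU25 had 828, 756, 682 and 672 in glu1-2 leaves, against 13, 15, 16 and 20 in wild type leaves. GSTU22 had 504, 476, 473 and 422 in glu1-2 leaves, against 32, 35, 36 and 43 in wild type leaves. No glu1-2 leaf array came near any wild type leaf array for either gene. Because the wild type mean of GSTU25 (15.8) was under 32, its level in glu1-2 leaves (mean 732) was at least 22.9-fold higher, and the measured log2 difference was 5.53 (SE 0.126, q = 3.11e-11). GSTU22 was 12.9-fold higher (log2 difference 3.69, SE 0.101, q = 1.74e-10), with its wild type leaf arrays close to the dim range.

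The remaining members of this group, GSTU24 and GSTU1, were named from the list of leaf-induced transcripts. GSTU24, whose product like that of GSTU25 is known to act on explosives residues, had 1720, 1577, 1733 and 1781 in glu1-2 leaves, against 34, 30, 40 and 36 in wild type leaves. GSTU1 had 1125, 987, 1110 and 965 in glu1-2 leaves, against 50, 44, 55 and 35 in wild type leaves. These are 48.9-fold (log2 5.61, SE 0.0964) and 23.0-fold (log2 4.52, SE 0.129) higher levels, with the wild type arrays close to the dim range.

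The same 4 genes were well expressed in roots, where the mutation moved them little and downward if at all. GSTU22 had 825, 839, 855 and 774 in glu1-2 roots, against 1159, 1269, 1182 and 1183 in wild type roots, and its fall was called (log2 difference -0.54, SE 0.0627, q = 0.000346). GSTU25 had 813, 866, 886 and 794 in glu1-2 roots, against 1022, 1045, 1088 and 979 in wild type roots. Those groups did not overlap either, but the log2 difference of -0.30 (SE 0.0651) missed the threshold with q = 0.0148. The threshold was passed under 3 other settings, with q between 0.00263 and 0.00944.

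GSTU1 had 685, 587, 599 and 599 in glu1-2 roots and 743, 713, 738 and 677 in wild type roots, with overlap, and a log2 difference of -0.22 (q = 0.0777). GSTU24 had 591, 600, 605 and 566 in glu1-2 roots and 572, 582, 769 and 597 in wild type roots. Its root groups overlapped, and replicate 3 of the wild type stood above the rest (log2 difference -0.08, q = 0.543). The root confidence intervals exclude a rise of the size seen in leaves for all 4 genes, since their upper ends lie at or below 0.12 on the log2 scale.

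**Figure D2:**
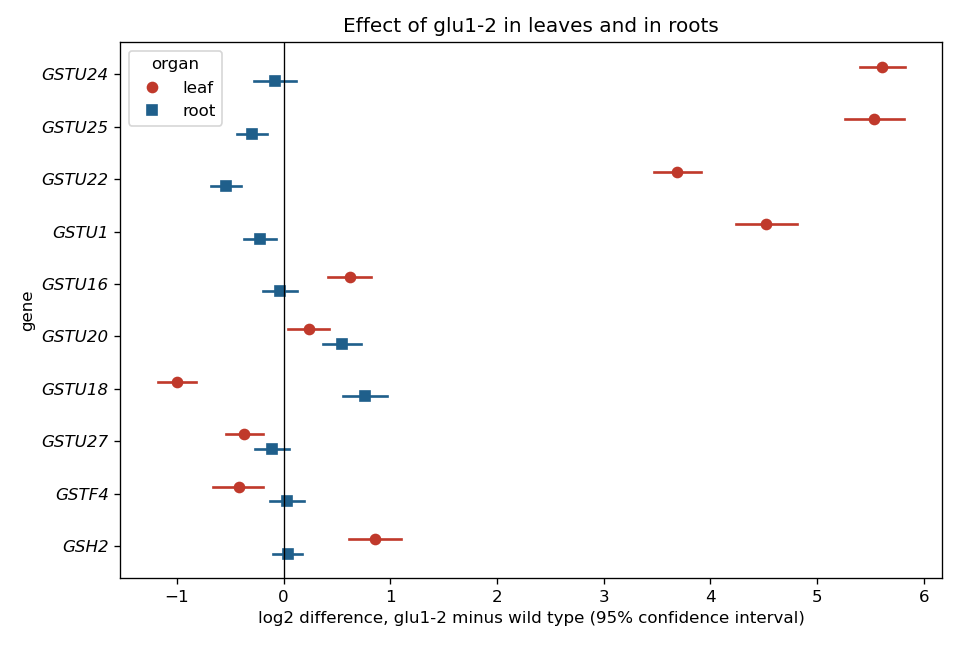
Log2 difference, glu1-2 minus wild type, of each gene in leaves (circles) and roots (squares), with 95% confidence intervals from limma (n = 4 arrays per group). GSH2, GSTU1 and GSTU24 were named from their leaf values, so their leaf intervals describe spread and are no test. Leaf differences run from -1.0 for GSTU18 to 5.61 for GSTU24, whereas root differences stay between -0.54 and 0.76; the leaf value of GSTU25 is measured against a dim wild type signal.

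Direct tests of the difference between organs, which use all 16 arrays, called GSTU25 and GSTU22. The effect of glu1-2 was larger in leaves than in roots by 5.83 on the log2 scale for GSTU25 (SE 0.146, q = 1.29e-16), and by 4.82 when all values under 32 were raised to 32. It was larger by 4.23 for GSTU22 (SE 0.12, q = 6.95e-16). The corresponding gaps, given without a test, were 5.69 for GSTU24, 4.74 for GSTU1 and 0.82 for GSH2.

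Genes that mark roots were looked at beside this result. Of 26 root markers listed, 4 could be named on the array (EXPA7, EXPA18, BGLU23 and LTPG20), and their summed intensity was 1148 to 1606 in glu1-2 leaves and 1288 to 1622 in wild type leaves. In roots the same sum was 12624 to 15322 in glu1-2 and 13112 to 15719 in wild type. Most of each sum came from BGLU23 alone, at 1025 to 1484 in glu1-2 leaves and 1162 to 1453 in wild type leaves. In roots BGLU23 had 9892 to 12683 in glu1-2 and 10556 to 12852 in wild type. LTPG20 had 54 to 65 in glu1-2 leaves and 47 to 88 in wild type leaves. None of the 4 was called by limma between glu1-2 and wild type leaves, where 27.9% of all probe sets were. EXPA18, lower, had an unadjusted p under 0.05, as had 41.9% of all probe sets. The root hair expansins EXPA7 and EXPA18 stayed between 24 and 47 in every leaf array.

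The other tau genes of the set behaved differently. GSTU16, GSTU20 and GSTU18 were genes of the leaf, each several-fold higher in leaves than in roots of wild type plants. GSTU16 had 507, 531, 592 and 477 in glu1-2 leaves, against 372, 313, 351 and 334 in wild type leaves, with no overlap. It was 1.54-fold higher (log2 difference 0.62, SE 0.0915, q = 0.000111). In roots it lay near the dim range in both genotypes, at 42, 42, 48 and 45 in glu1-2 and 45, 44, 50 and 42 in wild type, and did not pass the test (log2 difference -0.03, q = 0.673).

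GSTU18 moved in opposite directions in the 2 organs. It had 433, 409, 476 and 406 in glu1-2 leaves, against 887, 801, 875 and 890 in wild type leaves. In roots it had 161, 144, 153 and 160 in glu1-2, against 95, 77, 87 and 107 in wild type. The groups were separate in both organs: every mutant leaf array lay below, and every mutant root array above, all wild type arrays of that organ. The leaf level was 2.01-fold lower (log2 difference -1.0, SE 0.0826, q = 1.2e-06), and the root level 1.70-fold higher (log2 difference 0.76, SE 0.0945, q = 0.000483). The difference between organs was -1.77 (SE 0.127, q = 1.07e-09).

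GSTU20 had 4786, 4313, 4942 and 4954 in glu1-2 leaves and 3855, 4449, 3621 and 4206 in wild type leaves. These groups overlapped, and the log2 difference of 0.24 (SE 0.0898) was not called (q = 0.0296). GSTU20 fell just under the threshold after quantile normalisation was repeated (q = 0.00999) and with robust moderation that followed the intensity (q = 0.00935). In roots it had 784, 725, 891 and 787 in glu1-2, against 605, 505, 534 and 529 in wild type. Every mutant root array was higher than every wild type one, and the 1.47-fold difference was called (log2 0.55, SE 0.081, q = 0.0015). The difference between organs, -0.31, was not called (q = 0.0272), though it passed with every array shifted to the same median (q = 0.00853). The root calls of GSTU18 and GSTU20 were both lost when all values under 32 were raised to 32 before the fit (q = 0.019 and q = 0.0237).

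Green leaf markers moved in roots together with GSTU18 and GSTU20. The 4 of 25 listed markers that could be named (PSBY of photosystem II, the Rubisco activase RCA, and PRK and SBPASE of the Calvin cycle) were all higher in glu1-2 roots, by 0.46 to 0.87 on the log2 scale, with summed intensities of 2657 to 2838 in glu1-2 and 1594 to 1897 in wild type. With a replicate block the root calls of PSBY (q = 0.0195) and SBPASE (q = 0.0134) were lost. With a floor of 32 those of PSBY (q = 0.0171), RCA (q = 0.011) and SBPASE (q = 0.0368) were lost. The root call of SBPASE was also lost without glu1-2 root replicate 2 (q = 0.0102). In leaves PSBY, PRK and SBPASE were lower in glu1-2, and RCA was not called (log2 differences from -0.88 to -0.20). Their summed intensity there was 21341 to 25381 in glu1-2 and 30801 to 33332 in wild type. GSTU18 followed the markers in both organs, whereas GSTU16, also a gene of the leaf, rose in leaves and was not called in roots. The part of these markers' shift in the results for GSTU18 and GSTU20 was not tested.

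GSTU27 was the member that differed least among the groups. It had 500, 454, 532 and 498 in glu1-2 leaves, against 652, 588, 671 and 644 in wild type leaves, and 629, 645, 635 and 587 in glu1-2 roots, against 697, 737, 643 and 618 in wild type roots. The mutant leaf arrays all lay below those of the other 3 groups, which overlapped each other. It was 1.29-fold lower in glu1-2 leaves (log2 difference -0.37, SE 0.082, q = 0.00202), and the root difference of -0.11 was not called (q = 0.373). The difference between organs, -0.26, was not called either (q = 0.0369).

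GSTF4, the only phi class gene of the set, was a gene of the root with a faint signal in leaves. It had 39, 51, 52 and 45 in glu1-2 leaves, against 60, 69, 57 and 64 in wild type leaves, and 179, 188, 195 and 178 in glu1-2 roots, against 189, 184, 161 and 193 in wild type roots. The leaf groups were separate by a narrow margin, and the root groups overlapped. It was 1.34-fold lower in glu1-2 leaves (log2 difference -0.42, SE 0.106, q = 0.00389), without a call in roots (0.03, q = 0.682), and the difference between organs was -0.45 (q = 0.00553). The leaf call was lost without glu1-2 replicate 1 (q = 0.0119) or 4 (q = 0.012), or without wild type replicate 2 (q = 0.013) or 4 (q = 0.0103). The call between organs was lost under Benjamini-Hochberg adjustment (adjusted p = 0.0115).

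In counts, 3 of the 7 genes named by the array annotation rose in glu1-2 leaves (GSTU25, GSTU22 and GSTU16), 3 fell (GSTU18, GSTU27 and GSTF4) and GSTU20 was not called. Over all probe sets, 27.9% were called in leaves, 14.2% as higher and 13.7% as lower. The median log2 difference of the 7 genes was 0.24, against -0.022 for all probe sets. In roots, 2 of all 10 genes rose (GSTU18 and GSTU20) and 1 fell (GSTU22), where 2.84% of all probe sets were called, 1.58% as higher and 1.26% as lower. The difference between organs was called for 5 of the 7 genes, namely GSTU25, GSTU22, GSTU16, GSTU18 and GSTF4, and for 25.8% of all probe sets.

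Between organs of the wild type, the set split into genes of the root and genes of the leaf. GSTU25 was at least 32.3-fold lower in leaves than in roots, GSTU22 33.0-fold lower (log2 difference -5.04, SE 0.0927) and GSTF4 2.91-fold lower (-1.54, SE 0.0878). The wild type leaf arrays of GSTU22 (32 to 43) lay close to the dim range, so its fold is not measured closely. GSTU18 was 9.49-fold higher in leaves (3.25, SE 0.0993), GSTU16 7.57-fold (2.92, SE 0.0839) and GSTU20 7.42-fold (2.89, SE 0.089). All 6 were called, while GSTU27 was not (-0.08, q = 0.066), and 75.2% of all probe sets were called between wild type organs. By their ranges GSTU24 and GSTU1 were also lower in wild type leaves than roots (18.0-fold and 15.8-fold), and GSH2 was 1.17-fold lower. Naming these 3 through a leaf-induced list favours low wild type leaf levels, so their gaps are given as a description only. Shifting every array to the same median moved all differences between wild type organs by 0.14, which turned the sign of GSTU27, never called, and of no other member. The small log2 difference of GSH2 shrank from -0.22 to -0.08 under this shift.

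In mutant leaves GSTU25 stood at 70.9% and GSTU22 at 39.1% of the wild type root mean, and GSTU24 and GSTU1 above it, at 272% and 146%. For GSTU25 the glu1-2 leaf and glu1-2 root arrays overlapped, and their difference of -0.20 was not called (q = 0.0115), though it passed under 4 other settings, among them the fits without leaf replicate 1 (q = 0.00283) and without root replicate 4 (q = 0.00862). GSTU22 remained lower in glu1-2 leaves than in glu1-2 roots (-0.81, SE 0.0753, q = 2.06e-07). GSTU24 and GSTU1 were higher in mutant leaves than in any root array of either genotype.

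The leaf genes remained leaf genes in the mutant, with GSTU16 11.9-fold, GSTU20 5.97-fold and GSTU18 2.79-fold higher in glu1-2 leaves than in glu1-2 roots. GSTF4 was 3.98-fold lower and GSTU27 1.26-fold lower in glu1-2 leaves than in glu1-2 roots. These 5 and GSTU22 were the 6 of 7 genes called, where 67.4% of all probe sets were.

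When the 4 groups of each gene were ordered by level, 15 of 21 pairs of neighbouring levels among the 7 genes named by the array annotation differed by an exact permutation test. Each of the 15 gave a two-sided p of 0.0286, below which a design of 4 against 4 arrays cannot go and which means that the groups did not overlap. Over all probe sets, 29.4% of neighbouring levels did not overlap. By the same exact permutation test, the 6 pairs that missed 0.0286 were both root groups of GSTU16 (p = 0.743) and of GSTF4 (p = 0.771), both leaf groups of GSTU20 (p = 0.0571), both glu1-2 organs of GSTU25 (p = 0.0857), and the 3 upper groups of GSTU27 (root wild type against leaf wild type p = 0.371, leaf wild type against root glu1-2 p = 0.486). For GSH2 the levels ran leaf glu1-2, root glu1-2, root wild type and leaf wild type, with only both root groups overlapping. For GSTU24 and GSTU1 they ran leaf glu1-2, root wild type, root glu1-2 and leaf wild type, again with overlap between the root groups alone.

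**Figure D3:**
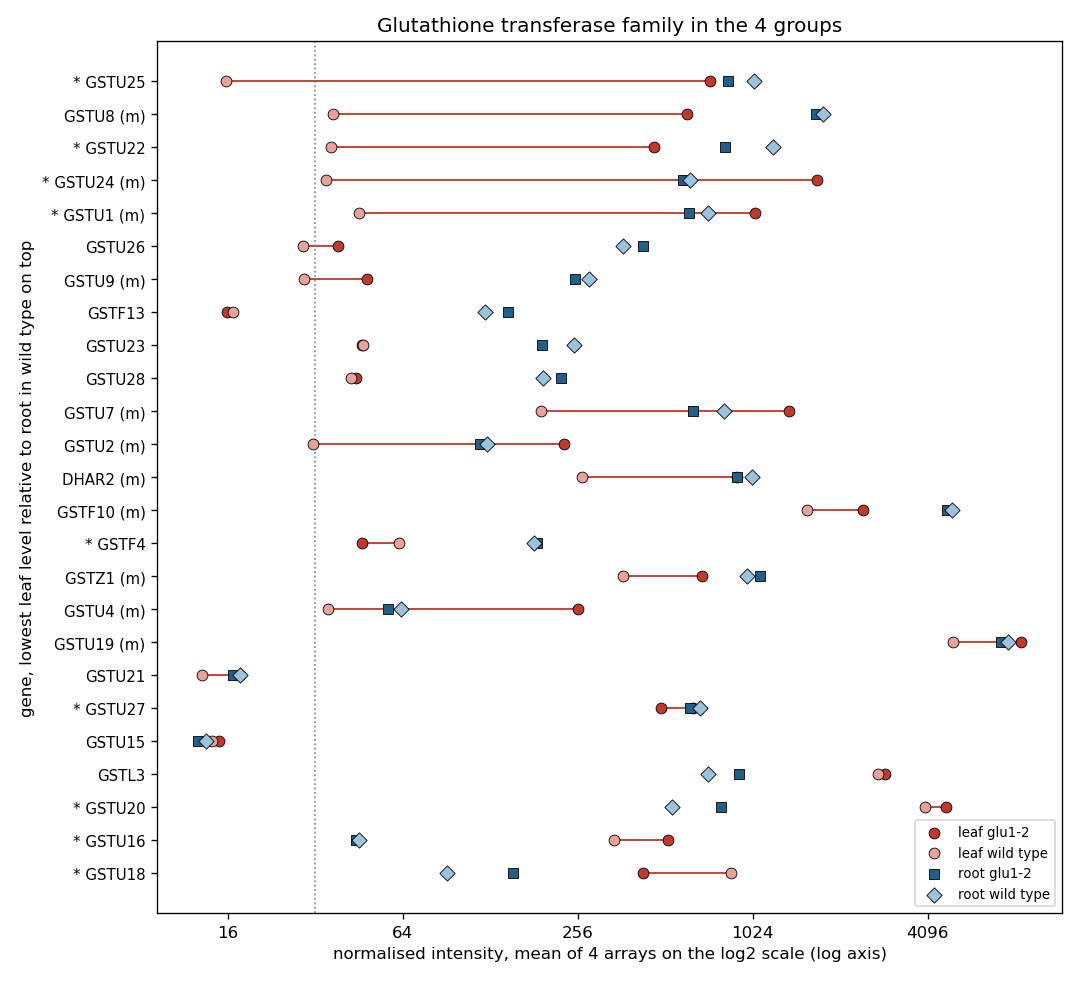
Mean intensity of 25 glutathione transferase family genes in the 4 groups (each the mean of 4 log2 values, on a log axis), ordered from the gene lowest in leaves relative to roots in wild type. Asterisks mark genes of the set, (m) marks genes identified by their leaf values from the list of induced transcripts, lines join the leaf groups, and the dotted line marks 32. The long lines belong to genes such as GSTU25, with 732 in glu1-2 leaves and 15.8 in wild type leaves, while GSTU26, GSTF13, GSTU23 and GSTU28 have means between 15.9 and 46.7 in leaves of both genotypes.

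Outside the set, 7 further genes were named by the array annotation: GSTU15, GSTU21, GSTU23, GSTU26, GSTU28, GSTF13 and the lambda class gene GSTL3. None of the 7 was called by limma in leaves or in roots, where 27.9% and 2.84% of all probe sets were called. In leaves 2 of them were under an unadjusted p of 0.05 (GSTU21 and GSTU26), as were 41.9% of all probe sets. In roots 4 were (GSTU23, GSTU28, GSTF13 and GSTL3), against 18.2% of all probe sets. With all 16 arrays in a single fit GSTU21 (q = 0.00657) and GSTU26 (q = 0.00893) were called higher in leaves and GSTL3 higher in roots (q = 0.00451). With robust moderation that followed the intensity, GSTU23 was called lower (q = 0.00622) and GSTL3 higher (q = 0.00149) in roots. GSTL3 was also called higher in roots without the dimmest probe sets (q = 0.00674) and with every array shifted to the same median (q = 0.00844). Leaving out 1 array called GSTU21 (without glu1-2 leaf replicate 3, q = 0.00489, or wild type leaf replicate 1, q = 0.00893), GSTU26 (without wild type leaf replicate 2, q = 0.00747) and GSTL3 (without wild type root replicate 3, q = 0.00714). GSTU26 had 42, 38, 39 and 35 in glu1-2 leaves and 34, 36, 23 and 26 in wild type leaves, against a level of 428 in glu1-2 roots and 368 in wild type roots. Its wild type leaf mean of 29.2 was under 32, so its leaf difference is not measured closely. GSTU23 and GSTU28 were likewise stronger in roots than in leaves, and their leaf log2 differences were -0.01 and 0.04. GSTF13 was measured in roots and under 32 in every leaf array of both genotypes. GSTU15 was dim in all 4 groups, and GSTU21 stayed under 32 in every array, so its leaf difference has no measured size.

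A further 9 family genes could be named only from the list of leaf-induced transcripts, so their leaf rise (0.63 to 4.05 on the log2 scale) is the basis of their naming. They are GSTU2, GSTU4, GSTU7, GSTU8, GSTU9, GSTU19, GSTF10, the zeta class gene GSTZ1 and the dehydroascorbate reductase gene DHAR2. In roots, where naming played no part, none of the 9 was called by limma, and 2.84% of all probe sets were. Their root log2 differences ran from -0.35 to 0.15. Of the 9, 2 were under an unadjusted p of 0.05 in roots, GSTU7 and DHAR2, against 18.2% of all probe sets. GSTU7 was called lower there under 2 alternatives (q = 0.00246 and q = 0.00976). All 9 were lower in leaves than in roots of the wild type, as were 38.2% of all probe sets, but naming through a leaf-induced list favours low wild type leaf levels. They ran from GSTU8 with 36.9 in wild type leaves and 1790 in wild type roots to GSTU19 with 4987 and 7714. DHAR2 averaged 902 in glu1-2 leaves and 902 in glu1-2 roots, against 266 in wild type leaves and 1020 in wild type roots.

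**Figure D4:**
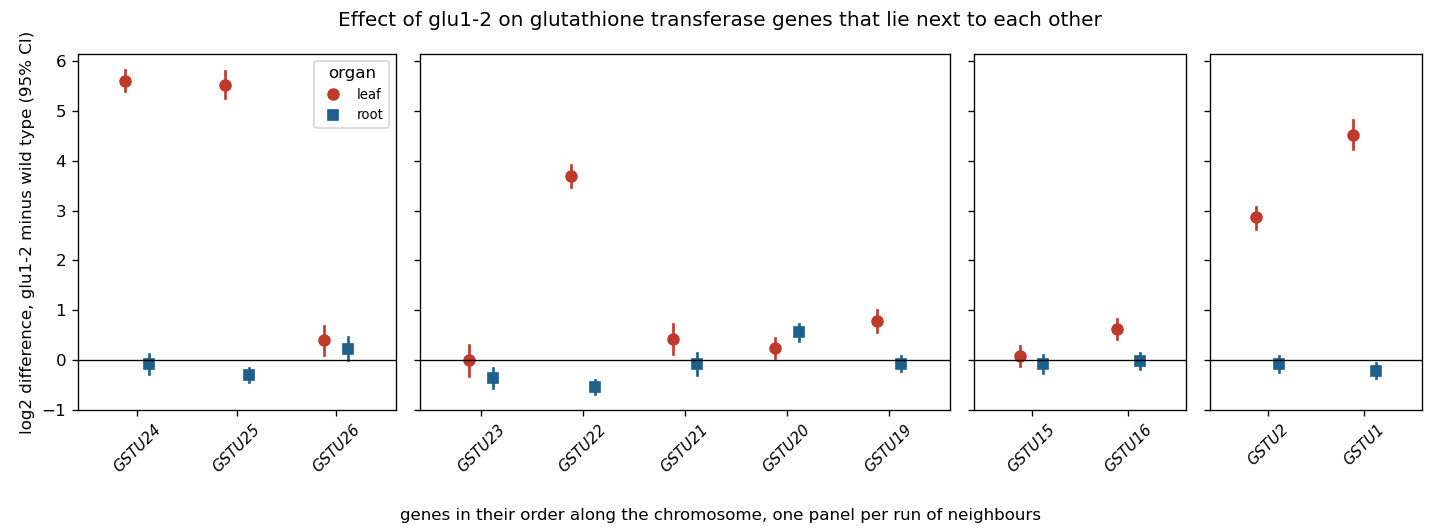
Log2 difference, glu1-2 minus wild type, in leaves (circles) and roots (squares) of glutathione transferase genes in 4 runs of chromosomal neighbours, with 95% confidence intervals (n = 4 arrays per group). GSTU24, GSTU19, GSTU2 and GSTU1 were named from the list of leaf-induced transcripts, so their leaf intervals describe spread and are no test. GSTU24 and GSTU25 lie at 5.61 and 5.53 in leaves and their neighbour GSTU26 at 0.39. GSTU22 lies at 3.69, between GSTU23 at -0.01 and GSTU21 at 0.42. GSTU21 and GSTU15 were dim in all groups, and GSTU25, GSTU26 and GSTU2 in wild type leaves, so their leaf differences are not measured closely.

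Chromosomal neighbours of the induced genes did not all share their change. Which neighbours are seen depends on their naming. GSTU24, GSTU19, GSTU1 and GSTU2 were named only from the list of leaf-induced transcripts, so their leaf rise is the basis of their naming. The other neighbours below were named by the array annotation. Some neighbours, such as GSTU3 beside GSTU2, could not be named. GSTU24, GSTU25 and GSTU26 follow each other with no other coding gene between them, and their leaf log2 differences were 5.61, 5.53 and 0.39 (GSTU26: q = 0.0205, not called). GSTU25 and GSTU26 were dim in wild type leaves, so their differences are not measured closely. GSTU23, GSTU22, GSTU21, GSTU20 and GSTU19 form another such run. Their leaf log2 differences were -0.01, 3.69, 0.42, 0.24 and 0.78, so that GSTU22 stood alone among its adjacent genes, of which GSTU21 was dim. GSTU16 lies 3 coding genes from GSTU15, which was dim in leaves of both genotypes. GSTU2, which lies next to GSTU1 with 1 coding gene between them, averaged 229 in glu1-2 leaves and 31.6 in wild type leaves. The probe sets of the 10 genes are of the kind designed to match a single transcript, but tau genes are similar in sequence, and cross-hybridisation between them was not examined.

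Few other genes of glutathione metabolism could be named on the array. The glutathione reductases, which keep glutathione in its reduced form, moved apart in leaves. The cytosolic GR1 had 1105, 1065, 1159 and 1157 in glu1-2 leaves, against 814, 794, 845 and 887 in wild type leaves (log2 difference 0.43, q = 0.00044). The organellar GR2 had 1138, 1054, 1210 and 1167 in glu1-2 leaves, against 1523, 1651, 1445 and 1391 in wild type leaves (log2 difference -0.39, q = 0.00149). Neither was called in roots, where 2.84% of all probe sets were. The organ difference was called for both (0.43 and -0.47), and for 25.8% of all probe sets. Of 23 genes listed for synthesis, reduction and breakdown, these were the only 2 named by the annotation. GSH2, GPX6 and CLT3 were named as leaf-induced, and none of these 3 was called in roots by limma, where 2.84% of all probe sets were. None of the 3 had an unadjusted p under 0.05 there, against 18.2% of all probe sets.

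Of the sulfate assimilation genes that supply cysteine, 3 of 16 listed were named by the annotation. In leaves the sulfite reductase SIR (log2 difference 0.61, q = 0.000146) and the ATP sulfurylase gene APS3 (0.45, q = 0.000511) rose, and APS4 fell (-0.35, q = 0.00605). The leaf call of APS4 was lost under Benjamini-Hochberg adjustment (adjusted p = 0.0124), with a floor of 32 (q = 0.0243) and when any one of 6 leaf arrays was left out, each of the 4 of glu1-2 and wild type replicates 3 and 4 (q = 0.0105 to 0.0184). The 4 named as leaf-induced (SERAT2;1, SERAT2;2, APR1 and APR3) and these 3 gave no limma call in roots, where 2.84% of all probe sets were called. Their root log2 differences ran from -0.32 to 0.34. Of the 7, 4 had an unadjusted p under 0.05 there, against 18.2% of all probe sets. With robust moderation that followed the intensity, SERAT2;1 was called lower (q = 0.00252) and APS4 higher (q = 0.00225) in roots. SERAT2;1 was also called lower there with all 16 arrays in a single fit (q = 0.00791). The vacuolar conjugate pump ABCC2, also named as leaf-induced, had 592, 577, 653 and 600 in glu1-2 leaves, against 278, 219, 272 and 262 in wild type leaves. In roots it did not pass the test (log2 difference 0.02, q = 0.706).

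The likeness of patterns was described by Pearson's r of log2 intensity over the 16 arrays. These fall into 4 groups, so that r mainly reflects the differences between the group means. Among single-gene probe sets outside the set, GSTU25 was most like At4g13180 (r = 0.9966), At2g47890 (r = 0.9899) and At5g64680 (r = 0.9893). At4g13180 averaged 1447 in glu1-2 leaves and 256 in wild type leaves, with 1456 in glu1-2 roots and 1856 in wild type roots. Within the set GSTU25 was most like GSTU22 (r = 0.984) and least like GSTU18 (r = -0.807).

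GSTU18 was most like At5g11420 (r = 0.9928), At1g65230 (r = 0.9897) and At1g01170 (r = 0.9895). At1g65230 averaged 690 in glu1-2 leaves and 1781 in wild type leaves, with 76.1 in glu1-2 roots and 46.8 in wild type roots. Within the set it was most like GSTU20 (r = 0.933) and least like GSTU22 (r = -0.898). GSH2 was most like At1g16210 (r = 0.9663), At5g09380 (r = 0.9585) and At4g01870 (r = 0.9556), and within the set most like GSTU24 (r = 0.769) and least like GSTU27 (r = -0.718). GSH2 and GSTU24 were both named from the list of leaf-induced transcripts, so a shared leaf rise was fixed by their naming. At4g01870 averaged 2313 in glu1-2 leaves and 372 in wild type leaves, with 696 in glu1-2 roots and 660 in wild type roots.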

How the data were processed

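Affymetrix ATH1 arrays were hybridised with RNA from leaves and roots of glu1-2 and wild type Col-0 plants (16 arrays, 4 per group). Per the study's methods, the authors preprocessed them with RMA, including quantile normalisation; the deposited intensity values are on a linear scale, rounded to whole numbers. The number of arrays limits the precision. Here log2 intensities of 22266 probe sets (13 control probe sets left out) were fitted with limma 3.58.1 in R 4.3.3, within each organ or genotype (8 arrays), or over all 16 arrays for the difference between organs. Calls used Storey's q under 0.01, with no fold limit. The fit was tested on simulated data. Neighbouring group levels were compared by exact permutation (scipy).

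Probe sets were named by the platform annotation (13216 with 1 gene, 491 with several, 8540 with none), with symbols and gene order from RefSeq (TAIR10.1). A further 19 listed genes, GSH2, GSTU1 and GSTU24 among them, were named by matching leaf values within 0.55 units to the study's list of induced genes; of 732 matches that also had a platform name, 727 gave the same gene. The files name no genome build, so no coordinates are given, and gene, promoter and protein sequences were not used here.

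All 10 genes are named. From other gene lists, up to 4 passing genes per organ and direction were to be named, by size of change, and for GSTU25, GSTU18 and GSH2 the 3 genes with the most similar pattern. GSTU2, GSTU8, GSTU19, DHAR2 and the genes not called were named after their values were seen. Members and lists were chosen with earlier results of these data known. Alternatives changed the adjustment, threshold, floor, filter, normalisation, moderation, replicate block and arrays included.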

Additional observations from a re-analysis of the deposited data

Results flagged for a closer look

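The effect of glu1-2 differed between leaves and roots for 5 of the 7 genes named by the array annotation. The test was that of the difference itself (limma over all 16 arrays), which called 25.8% of all probe sets. The leaf minus root gap in log2 difference was 5.83 for GSTU25, 4.23 for GSTU22, 0.65 for GSTU16, -1.77 for GSTU18 and -0.45 for GSTF4. The call of GSTF4 was lost under 9 of 25 alternatives. Called changes had opposite signs in the organs for GSTU18, lower in glu1-2 leaves and higher in glu1-2 roots, and for GSTU22, higher in glu1-2 leaves and lower in glu1-2 roots. Of 40 groups of 4 arrays, 3 had an array far from the others of its group, and chance puts about 1 in 20 such groups there. These were GSTU1 in root glu1-2 replicate 1 (685), GSTU24 in root wild type replicate 3 (769) and GSTU18 in leaf wild type replicate 2 (801). Leaving out that array changed no call of the gene it concerns.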

How the results depend on the processing

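The leaf calls of GSTU25, GSTU22 and GSTU18, and their calls between organs, held under every alternative run. The leaf calls of GSTU16 and GSTU27 held under all but the requirement of a log2 difference of at least 1, as did the root call of GSTU22. No call of any of the 10 genes changed sign. GSTF4 was the least stable, losing its leaf call under 6 of 18 alternatives and its call between organs under 9 of 25; the cause was not tested. Counts over all probe sets moved as follows. Requiring a log2 difference of at least 1 left 547 higher and 406 lower in leaves, 26 and 27 in roots, 654 and 533 between organs, 2853 and 3080 between wild type organs, and 2543 and 2618 between glu1-2 organs. In roots, with 352 higher and 280 lower, there were 793 and 707 at q under 0.05, 86 and 51 with a floor of 32, and 536 and 450 when moderation was robust and followed the intensity. The floor also gave 4440 higher in leaves than roots of the wild type and 4418 in glu1-2, against 8227 and 7517. Shifting arrays to the same median changed the leaf split to 2873 higher and 4016 lower, that between organs to 2549 and 3575, that between wild type organs to 11063 and 7381, and that between glu1-2 organs to 9983 and 6974, while the log2 differences of the members moved with all others by -0.058 to 0.14.

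Leaving out each array in turn gave 2706 to 3166 higher and 2588 to 2933 lower probe sets in leaves, and 210 to 284 higher and 128 to 216 lower in roots. The root counts moved most without glu1-2 replicate 2 (210 higher, 128 lower). They also moved by over 1.5 times without glu1-2 replicate 3 (220 higher), and without glu1-2 replicate 1 (176 lower) or 4 (167 lower) or wild type replicate 3 (169 lower). The root calls of GSTU18, GSTU20 and GSTU22 held in all 8 of these fits. Leaving out arrays also gave 2597 to 3041 and 2572 to 2941 between organs, 7586 to 8182 and 8114 to 8500 between wild type organs, and 6902 to 7482 and 7120 to 7592 between glu1-2 organs. Correlations of the deviations of same-numbered replicates ran from -0.042 to 0.128 between genotypes of an organ and from -0.0128 to 0.133 between organs of a genotype, not all above 0.1 in any of the 4 comparisons, so the numbers were not taken to pair the samples. With the replicate number as a block the root counts were 146 higher and 103 lower, and no call of the 10 genes was lost or gained in any comparison. The highest correlation was with the own number for 2 of 4 numbers in leaves, in roots and in glu1-2, and for 1 of 4 in wild type. Signals under an intensity of 32 give bounds only, which touches GSTU25 in wild type leaves, and the small leaf signal of GSTF4 limits that result. Using linear intensities in the permutation tests again separated 15 of 21 pairs.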
